A study of Homo sapiens with 36 samples.

Results

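The genes described here are 40 genes that encode chaperones, folding enzymes, stress sensors and quality-control factors of the endoplasmic reticulum (ER), read from the raw count table by matching each listed symbol to its Ensembl identifier. All 40 had a row among the 74628 genes of the table, and 39 passed the filter on low counts. DERL3, a derlin of ER-associated degradation, was not tested because it had 0 to 2 counts in each RNA sample. The list was drawn up to hold genes of ER folding and ER-associated degradation and known targets of the transcription factors ATF6 and XBP1. The members were chosen by name and not by a measured value, but with earlier results from the same table known.

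RNA came from Jurkat cells, a human T-cell leukaemia line, that stably carried dCas9-VP64, a nuclease-dead Cas9 joined to a transcriptional activator. The cells had been given a lentiviral guide directed at RELA (sgRELA) or a non-targeting guide (sgControl), selected with puromycin for 3 days and harvested 5, 6 or 7 days after transduction. For each of 6 combinations of guide and day there were 3 biological replicates from triplicate transductions, and each RNA sample was made into 2 libraries from 100 pg of RNA by RamDA-seq, a full-length method for very small inputs. All groups share the dCas9-VP64 line, the mCherry marker of that line, lentiviral transduction and puromycin, and no untransduced or unselected cells are analysed here. Nothing further in the labels separates the cultures. The p-values measure the spread between RNA samples within a group, estimated in 1 fit over all 6 groups of 3. A single line and 1 guide per name were used as far as the labels say, and the day of harvest and any batch that went with it cannot be told apart.

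Secretory and membrane proteins fold in the ER with the help of chaperones of the Hsp70 and Hsp90 families, of lectins that hold glycoproteins, and of enzymes that form disulfide bonds. When unfolded proteins accumulate, the sensors IRE1 (gene ERN1), PERK (gene EIF2AK3) and ATF6 start the unfolded protein response: IRE1 splices XBP1 mRNA, ATF6 is cut to a transcription factor, and PERK slows translation and raises ATF4. XBP1 and ATF6 raise ER chaperones and the machinery of ER-associated degradation, which returns misfolded proteins to the cytosol for destruction, and the XBP1 branch is known to be active in stimulated T cells.

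Promoter sequences are shown first because XBP1 and ATF6 act through known short elements. The ER stress response element ERSE was searched as CCAAT and CCACG with any 9 bases between them, where CCAAT is the site of the factor NF-Y. ERSE-II was searched as ATTGG and CCACG with any 1 base between them, and the unfolded protein response element UPRE was searched as TGACGTGG. Exact matches were sought on both strands from 250 bases before to 50 bases after each RefSeq start in the GRCh38.p14 table of promoters, which held 36 of the 40 members. PDIA3, DERL1, DERL3 and SEC24D were missing from it. ERSE was found in 8 members (22.2%), against 25 of all 27305 genes in the table (0.0916%). ERSE-II was found in 3 members (8.33%), against 0.0696% of all genes, and UPRE in 3 members (8.33%), against 0.927%. Known targets of ATF6 and XBP1 were a criterion of the list, so a high share of these elements follows in part from that choice. A match is a description of letters and not evidence that a factor binds there.

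The stretches below are those that carry ERSE or ERSE-II outside annotated exons. They are written 5′ to 3′ on the strand of the gene, and the capitals mark the fixed letters of ERSE or ERSE-II, or of their reverse complement.
HSPA5, chr9:125241371-125241429, minus strand: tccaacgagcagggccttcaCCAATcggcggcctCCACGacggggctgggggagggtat
CALR, chr19:12938364-12938422, plus strand: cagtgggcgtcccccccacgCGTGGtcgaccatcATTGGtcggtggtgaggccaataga
XBP1, chr22:28800598-28800641, minus strand: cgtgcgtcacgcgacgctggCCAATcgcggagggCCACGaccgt
CRELD2, chr22:49918534-49918592, plus strand: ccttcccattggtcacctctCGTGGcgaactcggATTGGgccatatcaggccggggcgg
PDIA6, chr2:10812845-10812891, minus strand: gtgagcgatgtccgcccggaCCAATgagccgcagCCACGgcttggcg
ERO1B, chr1:236282163-236282208, minus strand: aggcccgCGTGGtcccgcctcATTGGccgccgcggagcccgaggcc
HYOU1, chr11:119057254-119057410, minus strand: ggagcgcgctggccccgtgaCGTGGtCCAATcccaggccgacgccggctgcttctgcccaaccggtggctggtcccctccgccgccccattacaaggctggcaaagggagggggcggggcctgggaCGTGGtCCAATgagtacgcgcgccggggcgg
SDF2L1, chr22:21642094-21642144, plus strand: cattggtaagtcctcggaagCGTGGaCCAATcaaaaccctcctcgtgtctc
HERPUD1, chr16:56932005-56932047, plus strand: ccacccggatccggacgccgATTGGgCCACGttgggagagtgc
HSPA5, CALR, XBP1, CRELD2, PDIA6 and ERO1B carry ERSE, while HYOU1 carries ERSE-II at 2 places and SDF2L1 and HERPUD1 at 1. The HYOU1 stretch also holds UPRE, which overlaps its upstream ERSE-II. HSP90B1 and CANX carry ERSE too, HSP90B1 at 2 places, but those letters lie in annotated exons and are not printed. DNAJC10 and TXNDC5 hold UPRE alone. The stretches of PDIA6 and CRELD2 lie inside the span that GENCODE v29 gives the gene, upstream of the RefSeq start that was used, and the other 7 lie upstream of the whole annotated gene.

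**Figure D1:**
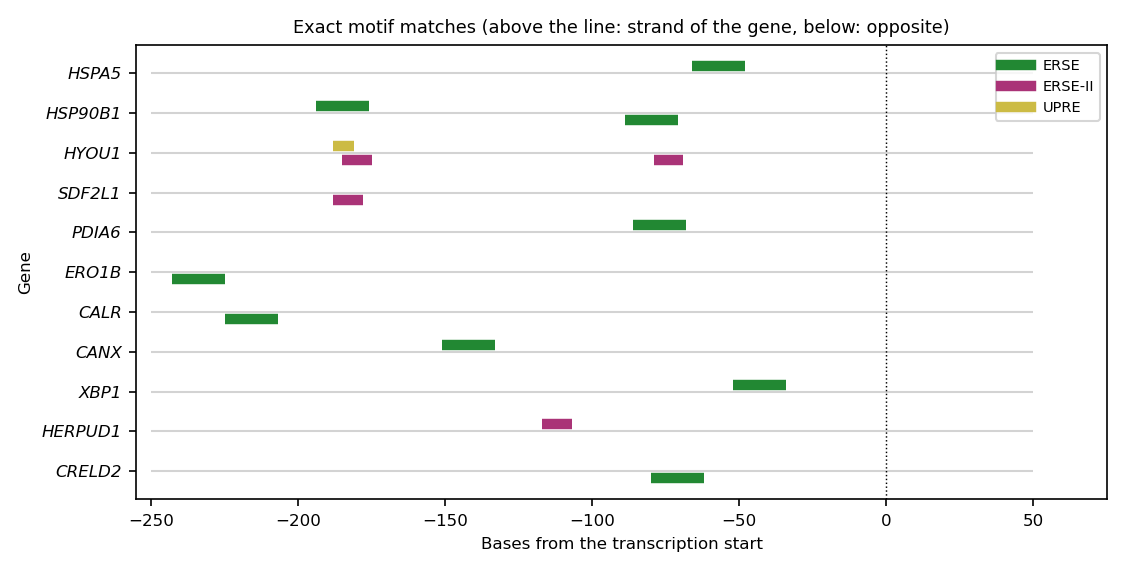
Position of each exact match in the promoter windows of the 11 members with ERSE or ERSE-II. The horizontal axis is the distance in bases from the RefSeq transcription start (negative is upstream), and blocks above a line lie on the strand of the gene and blocks below it on the opposite strand; the block of HSPA5 spans -66 to -48 and that of XBP1 -52 to -34.

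Depth ran from 7586205 to 16124473 counts per library and from 18769530 to 29503934 per RNA sample. The level of a gene is given below as CPM, its count scaled to 1000000 counts per sample after TMM scaling of the totals, whose factors lay between 0.971 and 1.08. Of 11 T-cell markers, all were detected, with a summed level of 3161 to 4270 CPM. The highest of them was PTPRC, a gene not limited to T cells, at 947.8 to 1473 CPM. Lists for other cells were low: 5 myeloid markers summed to 19.9 to 42.4 CPM, 4 epithelial markers to 0 to 1.69 CPM and 5 fibroblast markers to 1.95 to 10.4 CPM, with EPCAM, COL1A2 and LUM at 0 throughout. The 7 B and plasma cell markers summed to 65.7 to 136.4 CPM. Single genes made up most of these sums. CD79A was at 16.4 to 62.6 CPM and MZB1 at 46.5 to 84.4 CPM, with no other B or plasma cell marker above 1.072 CPM. CD68 was at 17.7 to 40.8 CPM, with no other myeloid marker above 2.896 CPM, and COL1A1 was at 1.95 to 10.35 CPM. In bulk RNA, fewer cells of a type and less RNA per cell cannot be told apart.

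The summed level of the members was highest on day 6 and lowest on day 7 under both guides, although single members differed in order. The 40 genes together took 0.608% ± 0.0446 of all counts on day 5, 0.883% ± 0.0534 on day 6 and 0.484% ± 0.0107 on day 7 under sgControl (mean ± SD, n = 3 RNA samples). Under sgRELA they took 0.648% ± 0.0268, 0.883% ± 0.0192 and 0.481% ± 0.00161. The lowest day 6 sample, at 0.833%, lay above the highest day 5 sample, at 0.678%, and every day 7 sample lay at or below 0.496%.

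Differences between groups were tested with edgeR's quasi-likelihood F test on the 18 RNA samples, adjusted by the Benjamini-Hochberg method over 27553 genes, and a gene is called where the adjusted p is under 0.05. From day 5 to day 6, 20 of the 39 members tested rose under sgControl, where 3.29% of all genes tested rose, and 18 rose under sgRELA, where 2.57% did. No member fell in either, against 5.58% and 4.34% of all genes. From day 6 to day 7, 26 members fell under sgControl (6.31% of all genes) and 23 under sgRELA (5.02%), and only TXNDC5 rose in each (8.25% and 7.21%). Against day 5, 10 members were lower on day 7 under sgControl (6.36%) and 12 under sgRELA (6.06%), and TXNDC5 and UGGT1 were higher in each (6.65% and 6.35%). Without sgControl day 5 replicate 1, the count of members called in the comparison of day 7 with day 5 under sgControl was 7 in place of 12. Without the 2 RNA samples whose libraries had the fewest detected genes (sgControl day 5 replicate 2 and day 6 replicate 1), the counts called in these 3 comparisons were 15, 27 and 15 under sgControl, in place of 20, 27 and 12, and 20, 25 and 15 under sgRELA, in place of 18, 24 and 14. With library 1 of each RNA sample alone they were 11, 19 and 5 under sgControl and 6, 22 and 7 under sgRELA. These comparisons share RNA samples, since day 6 enters the first and the second and day 7 the second and the third.

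The median log2 fold change of the 39 members was 0.44 on day 6 against day 5 under sgControl and 0.32 under sgRELA, beside 0.04 and 0.03 over all genes tested. On day 7 against day 6 it was -0.81 and -0.82, beside -0.07 and -0.06, and on day 7 against day 5 it was -0.13 and -0.25, beside -0.01 and -0.01. The 2 guides come from separate transductions but share the days of harvest, so agreement between them does not tell day from batch. From day 5 to day 6, 17 members rose under both, where 1.31% of all genes did. From day 6 to day 7, 23 members fell under both (2.95%), and against day 5, 9 were lower on day 7 under both (3.72%). In all, 29 of the 39 were called in at least 1 of the 6 day comparisons and 26 under both guides in the same direction in at least 1, beside 28.2% and 13.7% of all genes tested.

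Several measures of the libraries moved with the day as well. The mitochondrial share of counts was 7.43% to 9.28% on day 5, 8.33% to 9.23% on day 6 and 7.41% to 7.85% on day 7 under sgControl, and 7.56% to 7.81%, 8.67% to 9.87% and 7.5% to 7.81% under sgRELA. The T-cell markers, PTPRC included, summed to 3161 to 3398, 3483 to 3695 and 3987 to 4073 CPM on days 5, 6 and 7 under sgControl. Under sgRELA they summed to 3321 to 3488, 3897 to 4102 and 4223 to 4270 CPM. The 5 myeloid markers summed to 28.2 to 34.5, 36.1 to 41.1 and 19.9 to 24.8 CPM on days 5, 6 and 7 under sgControl and to 32.9 to 38.8, 30.3 to 42.4 and 21.2 to 23.3 CPM under sgRELA. The 7 B and plasma cell markers summed to 75.4 to 82.0, 88.2 to 110.8 and 65.7 to 75.8 CPM under sgControl and to 115.8 to 118.2, 126.9 to 136.4 and 102.9 to 124.5 CPM under sgRELA. Of these 2 lists, CD14, MS4A1, JCHAIN and SDC1 were each at 0 in all samples of at least 1 group. CD68, CD79A and MZB1 were detected in every RNA sample. RNA samples of day 6 had 18769530 to 22147753 counts and those of day 7 had 24051818 to 26147414. The part of these measures in the day differences was not tested.

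**Figure D2:**
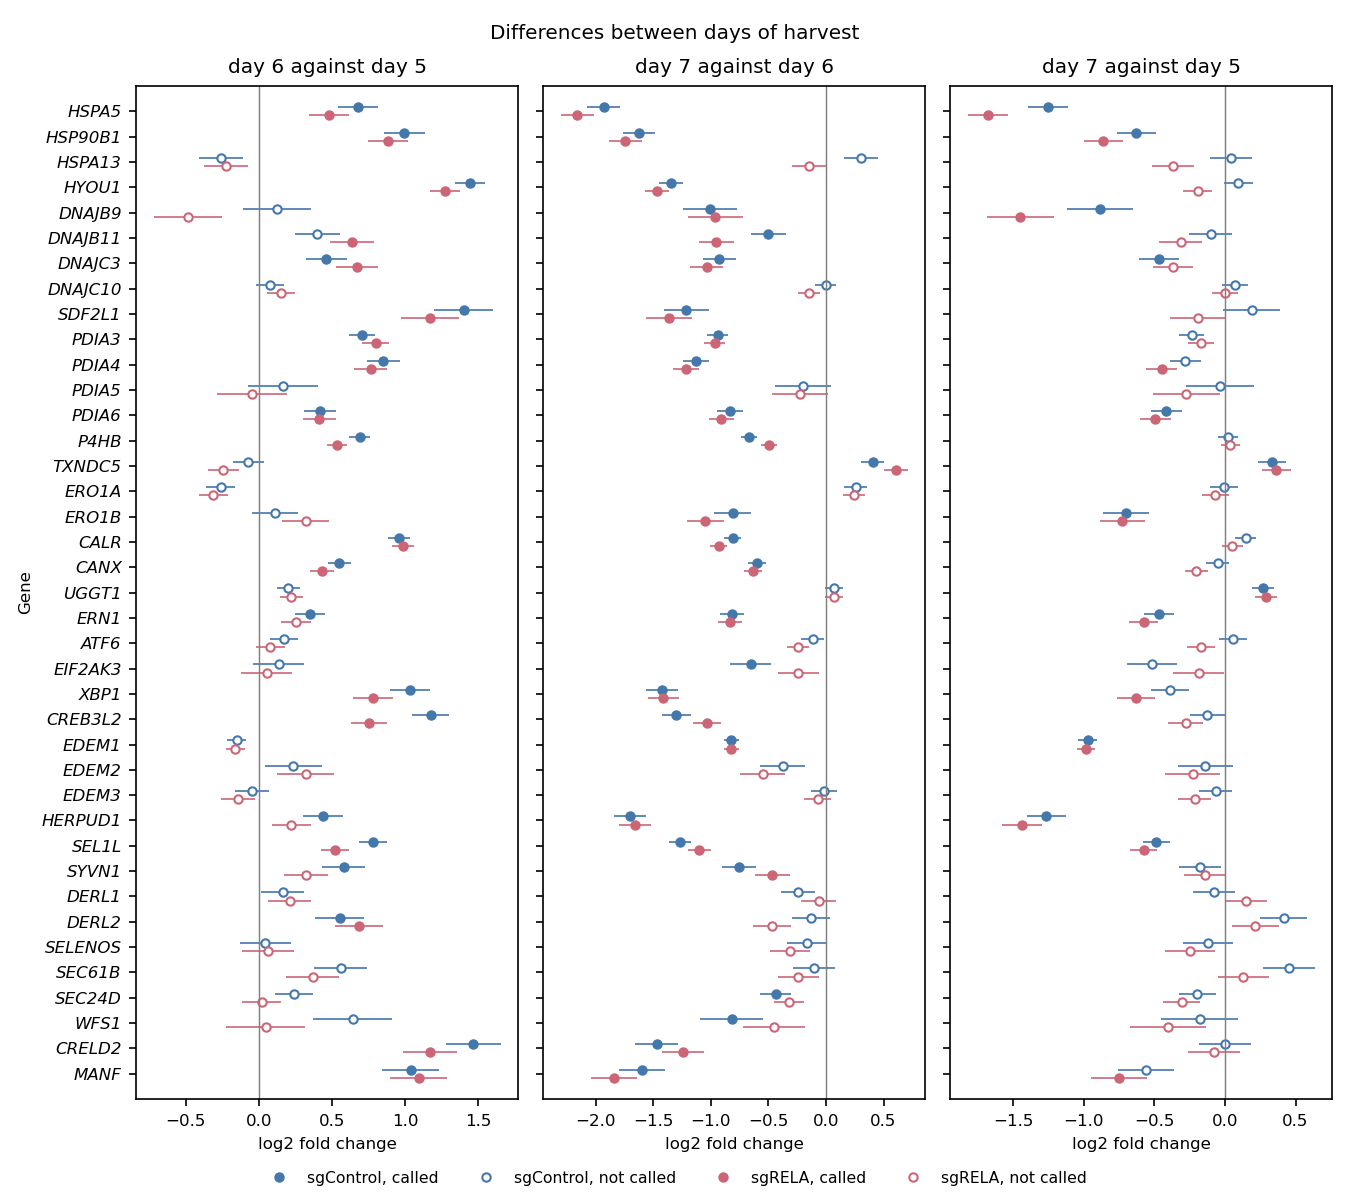
Log2 fold change (horizontal axis) of the 39 tested members between days, with bars of 1 standard error; filled points were called by edgeR at an adjusted p under 0.05. On day 6 against day 5 all called members lie right of 0, with 20 under sgControl and 18 under sgRELA, and on day 7 against day 6 all called members but TXNDC5 lie left of 0.

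In what follows, values are CPM in the order of replicates 1 to 3, and gene coordinates were taken from GENCODE v29 (GRCh38). Log2 fold changes are given with their standard error from the fit to all 18 RNA samples, with 3 per group. The annotation used for counting is not given in the sources used here, and the intervals counted may differ from these coordinates. Many members share exon bases with other genes in GENCODE v29. Among tested members the share was 60.6% for TXNDC5, 25.2% for PDIA6, 23.2% for DNAJB11 and 18.9% for PDIA3. For EIF2AK3 it was 15.1%, for PDIA5 14.3% and for SYVN1 10.1%, and the other tested members had less.

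Among the 4 genes of the Hsp70 and Hsp90 class, HSPA5, HSP90B1 and HYOU1 rose on day 6 and fell on day 7 under both guides, while HSPA13 was called in no comparison. HSPA5 (chr9:125234853-125241330) encodes BiP, the Hsp70 chaperone of the ER lumen, which also holds the 3 stress sensors inactive. Under sgControl, HSPA5 was at 459.9, 241 and 350.5 on day 5, 529, 611 and 543 on day 6 and 146, 156 and 139 on day 7. Under sgRELA, HSPA5 was at 477, 348 and 373 on day 5, 600.1, 583 and 484 on day 6 and 118, 136 and 119.7 on day 7. Every day 6 sample lay above every day 5 sample of its guide, and every day 7 sample lay below both, so that no groups overlapped within a guide. HSPA5 rose by 0.68 ± 0.14 under sgControl (adjusted p = 0.00143) and 0.48 ± 0.14 under sgRELA (adjusted p = 0.0304) on the log2 scale. It then fell 3.82-fold and 4.47-fold on day 7 (log2 fold change -1.93 ± 0.14 and -2.16 ± 0.14, adjusted p = 2.03e-11 and 3.23e-12). Its day 7 level was also lower than that of day 5, 2.39-fold and 3.21-fold. The rise under sgRELA was not called without sgRELA day 5 replicate 2 or 3 or day 6 replicate 1 or 2 (edgeR adjusted p = 0.11 to 0.171) or with DESeq2 (adjusted p = 0.0693).

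HSP90B1 (chr12:103930107-103953645) encodes GRP94, the Hsp90 of the ER. HSP90B1 under sgControl was at 272, 149 and 195 on day 5, 339.6, 482 and 406 on day 6 and 139.7, 126 and 132 on day 7. HSP90B1 under sgRELA was at 269, 222 and 213 on day 5, 423, 437 and 436 on day 6 and 135, 116 and 137 on day 7. Its 3 days did not overlap within either guide, although day 5 replicate 2 of sgControl, at the lower end of its group, came close to the day 7 values. The rise on day 6 was 0.99 ± 0.14 and 0.88 ± 0.14 on the log2 scale (adjusted p = 1.09e-05 and 6.58e-05), and the fall on day 7 was 3.08-fold and 3.35-fold (adjusted p = 3.98e-10 and 1.39e-10).

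HYOU1 (chr11:119044189-119057202) encodes GRP170, a large Hsp70-related protein that exchanges nucleotide on BiP. HYOU1 levels under sgControl were 229, 171 and 184 on day 5, 484, 574 and 528 on day 6 and 202, 194 and 227 on day 7. HYOU1 levels under sgRELA were 264, 208 and 200.5 on day 5, 515, 596 and 512 on day 6 and 195, 194 and 199 on day 7. Day 6 stood apart from both other days under each guide, and days 5 and 7 overlapped under sgControl. HYOU1 rose 2.72-fold and 2.42-fold on day 6 (adjusted p = 7.33e-11 and 9.78e-10) and fell 2.54-fold and 2.76-fold on day 7 (adjusted p = 5e-11 and 1.34e-11). Its log2 fold change on day 7 against day 5 was 0.10 ± 0.10 and -0.19 ± 0.10 and was not called (adjusted p = 0.649 and 0.261). HSPA13, an Hsp70-like protein of microsomes, ranged from 55.8 to 105.9 CPM over the 18 samples.

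Of the 5 co-chaperones, SDF2L1 and DNAJC3 rose on day 6 under both guides, and DNAJB9, DNAJB11, DNAJC3 and SDF2L1 fell on day 7 under both. SDF2L1 (chr22:21642261-21644298) encodes a partner of the ER J-proteins that keeps BiP cycling. For SDF2L1, the sgControl values were 16.9, 13.9 and 10.9 on day 5, 46.8, 34.5 and 28.9 on day 6 and 15.6, 15.4 and 16.5 on day 7. For SDF2L1, the sgRELA values were 14.8, 19.2 and 13.5 on day 5, 39.3, 39.4 and 28.1 on day 6 and 12.9, 13.5 and 15.1 on day 7. Day 6 was the high day in all 6 samples with no overlap, and days 5 and 7 overlapped under both guides. SDF2L1 rose 2.64-fold under sgControl and 2.25-fold under sgRELA (adjusted p = 1.83e-05 and 0.000201) and fell 2.32-fold and 2.57-fold on day 7 (adjusted p = 3.75e-05 and 8.51e-06). Its highest sample, day 6 replicate 1 of sgControl, had 79.3 CPM in library 1 and 25.9 in library 2.

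DNAJC3 (chr13:95677139-95794989), also called P58IPK, encodes an ER J-protein that binds unfolded chains. DNAJC3 with sgControl was at 73.9, 49.8 and 72.4 on day 5, 86.0, 99.6 and 84.3 on day 6 and 42.0, 52.2 and 47.7 on day 7. DNAJC3 with sgRELA was at 68.7, 63.3 and 56.3 on day 5, 103, 99.4 and 97.3 on day 6 and 39.6, 58.9 and 47.4 on day 7. Day 6 lay above both other days without overlap, and days 5 and 7 overlapped. The log2 fold changes were 0.46 ± 0.14 and 0.67 ± 0.14 on day 6 against day 5 (adjusted p = 0.0359 and 0.00221) and -0.93 ± 0.14 and -1.04 ± 0.14 on day 7 against day 6 (adjusted p = 1.29e-05 and 2.76e-06). Leaving out sgControl day 5 replicate 2 or day 6 replicate 1 or 2 ended the call of the rise under sgControl (edgeR adjusted p = 0.0514 to 0.254).

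DNAJB9 (chr7:108569568-108574850), or ERdj4, encodes a J-protein that brings BiP to IRE1 and to misfolded clients. Counts of DNAJB9 under sgControl came to 25.9, 15.8 and 20.2 CPM on day 5, 19.4, 22.1 and 25.9 on day 6 and 14.4, 8.22 and 10.9 on day 7. Counts of DNAJB9 under sgRELA came to 26.7, 25.0 and 31.8 CPM on day 5, 22.5, 21.4 and 15.7 on day 6 and 14.3, 7.72 and 8.52 on day 7. DNAJB9 had no called rise on day 6: its log2 fold change was 0.12 ± 0.23 under sgControl, where days 5 and 6 overlapped, and -0.49 ± 0.23 under sgRELA, where all day 6 samples lay below day 5 (adjusted p = 0.846 and 0.245). On day 7 it fell 2.01-fold and 1.95-fold from day 6 (adjusted p = 0.00274 and 0.00528). Without sgRELA day 7 replicate 2 the latter had an edgeR adjusted p of 0.0511. DNAJB11, the J-protein ERdj3, fell by 0.50 ± 0.15 and 0.95 ± 0.15 on the log2 scale (adjusted p = 0.0217 and 3.18e-05), and its rise on day 6 was called under sgRELA (0.64 ± 0.15, adjusted p = 0.00705) but not under sgControl (0.40 ± 0.15, adjusted p = 0.102). The DNAJB11 fall under sgControl was not called without day 6 replicate 2 or day 7 replicate 2 or 3 of sgControl (edgeR adjusted p = 0.0584 to 0.261). DNAJC10, a J-protein that reduces disulfide bonds, was called on no day and ranged from 126 to 182 CPM.

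**Figure D3:**
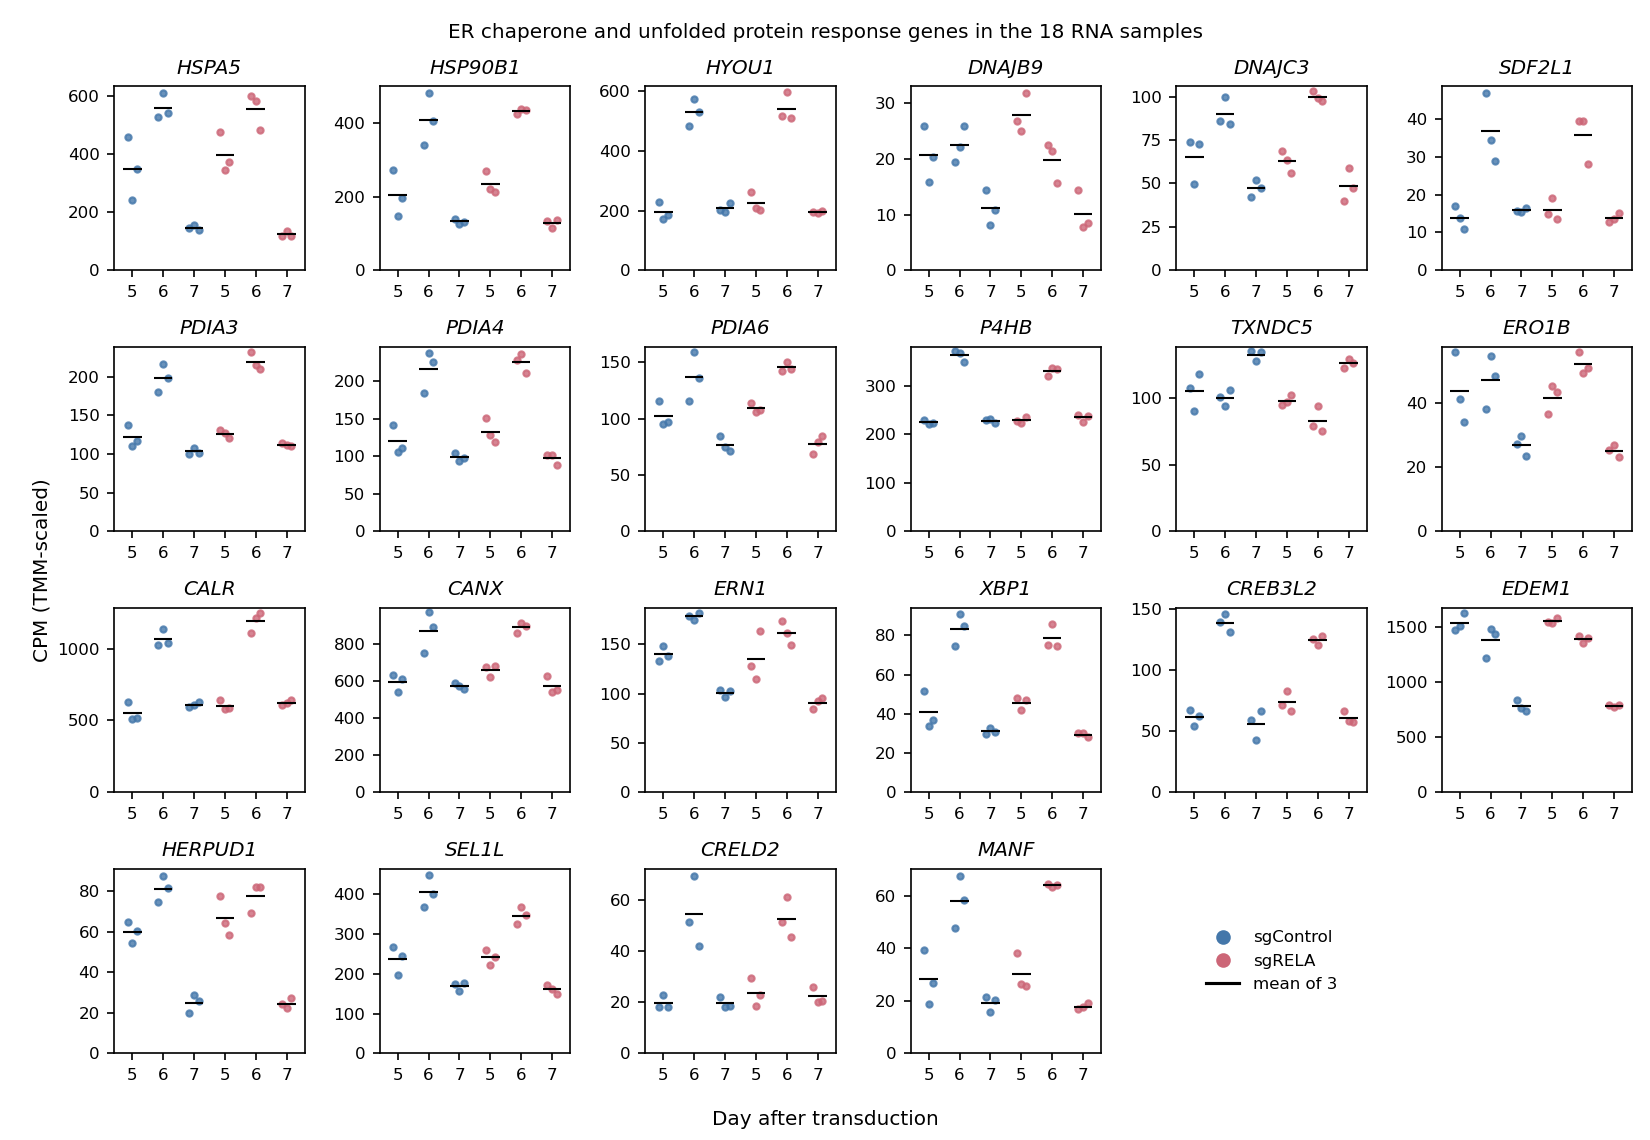
CPM (vertical axis, from 0 in each panel) of the 22 members described in every RNA sample, by day after transduction (horizontal axis); each point is 1 RNA sample and each bar the mean of 3. HSPA5 runs from 241 to 611 CPM on days 5 and 6 and from 118 to 156 CPM on day 7, and TXNDC5 is the panel in which day 7 is highest.

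Of the 8 oxidoreductases, PDIA3, PDIA4, PDIA6 and P4HB rose on day 6 under both guides and fell on day 7 under both. ERO1B fell on day 7, TXNDC5 rose on day 7, and PDIA5 and ERO1A were called in no day comparison. PDIA3 (chr15:43746392-43773279) encodes ERp57, the disulfide isomerase that works with calnexin and calreticulin. PDIA3 with sgControl was at 137, 111 and 118 on day 5, 180.4, 216 and 199 on day 6 and 99.9, 108 and 102 on day 7. PDIA3 with sgRELA was at 131, 127 and 120.3 on day 5, 232, 216 and 211 on day 6 and 114, 112 and 111 on day 7. Its 3 days did not overlap within a guide, with day 6 highest and day 7 lowest. PDIA3 rose by 0.70 ± 0.09 and 0.80 ± 0.09 and fell by 0.94 ± 0.09 and 0.97 ± 0.09 on the log2 scale (adjusted p = 4.69e-09 and 3.13e-09 for the fall).

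PDIA4 (chr7:149003062-149028641) encodes ERp72, another disulfide isomerase. PDIA4 under sgControl was at 142, 106 and 112 on day 5, 185, 238 and 226 on day 6 and 104, 93.7 and 98.1 on day 7. PDIA4 under sgRELA was at 152, 128 and 119 on day 5, 229, 237 and 212 on day 6 and 101, 102 and 89.0 on day 7. The days again did not overlap within a guide. PDIA4 rose 1.80-fold and 1.70-fold on day 6 (adjusted p = 4.83e-06 and 2.61e-05) and fell 2.19-fold and 2.32-fold on day 7 (adjusted p = 6.59e-09 and 1.95e-09). Against day 5, its day 7 level was lower under sgRELA (-0.45 ± 0.11, adjusted p = 0.00593) and not called under sgControl (-0.28 ± 0.11, adjusted p = 0.102). The former call was lost without sgRELA day 5 replicate 1 (edgeR adjusted p = 0.0661).

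PDIA6 (chr2:10783391-10837977) encodes P5, an isomerase that also acts on IRE1. PDIA6 levels under sgControl were 116, 95 and 97.5 on day 5, 116, 159 and 136 on day 6 and 84.7, 75.3 and 71.3 on day 7. PDIA6 levels under sgRELA were 114, 106 and 108 on day 5, 142, 151 and 144 on day 6 and 69.0, 79.6 and 84.3 on day 7. The highest day 5 sample of sgControl lay just under the lowest of day 6, and day 7 lay below all others. PDIA6 rose by 0.42 ± 0.11 and 0.41 ± 0.11 (adjusted p = 0.014 and 0.018) and fell by 0.83 ± 0.11 and 0.91 ± 0.11 (adjusted p = 1.55e-06 and 4.26e-07) on the log2 scale. The call of the rise ended without sgControl day 5 replicate 2 or 3 or day 6 replicate 2 (edgeR adjusted p = 0.0721 to 0.132), and under sgRELA without the samples of the same numbers (0.0698 to 0.078). In GENCODE v29, 25.2% of its exon bases are shared with ATP6V1C2, and the counting of shared bases is not given in the sources used here.

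P4HB (chr17:81843159-81860694) encodes PDI, the founding disulfide isomerase and a subunit of prolyl hydroxylase. For P4HB, the sgControl values were 230.1, 222 and 224 on day 5, 373, 368 and 350.1 on day 6 and 230.2, 232 and 224 on day 7. For P4HB, the sgRELA values were 227, 224 and 235 on day 5, 321, 337 and 335 on day 6 and 241, 226 and 239 on day 7. Day 6 was high in all 6 samples, and days 5 and 7 overlapped under both guides. P4HB rose 1.61-fold and 1.45-fold (adjusted p = 8.06e-08 and 5.04e-06) and fell 1.59-fold and 1.41-fold (adjusted p = 1.76e-08 and 4.4e-06), and the log2 fold change of day 7 against day 5 was 0.02 ± 0.07 and 0.04 ± 0.07.

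ERO1B (chr1:236215555-236281985) encodes an oxidase that recharges PDI. ERO1B under sgControl was at 55.9, 41.4 and 34.0 on day 5, 38.3, 54.8 and 48.5 on day 6 and 27.4, 29.7 and 23.6 on day 7. ERO1B under sgRELA was at 36.6, 45.4 and 43.4 on day 5, 55.9, 49.6 and 50.9 on day 6 and 25.4, 27.0 and 23.3 on day 7. Days 5 and 6 overlapped under sgControl, and day 7 lay below both under each guide. The day 6 difference was not called (0.11 ± 0.16 and 0.32 ± 0.16, adjusted p = 0.787 and 0.277), and ERO1B fell 1.76-fold and 2.07-fold on day 7 (adjusted p = 0.00046 and 1.9e-05). Its paralog ERO1A ranged from 93.3 to 147 CPM, with a log2 fold change on day 6 against day 5 of -0.26 ± 0.10 and -0.31 ± 0.10 (adjusted p = 0.0975 and 0.0511). PDIA5, a further disulfide isomerase, ranged from 10.7 to 23.2 CPM.

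TXNDC5 (chr6:7881517-7910814), or ERp46, a thioredoxin-like isomerase, went the other way. TXNDC5 levels under sgControl were 108, 90.4 and 118 on day 5, 100.4, 94.1 and 106 on day 6 and 135, 128 and 135 on day 7. TXNDC5 levels under sgRELA were 94.5, 96.8 and 102 on day 5, 79.2, 93.7 and 75.3 on day 6 and 122, 129 and 126 on day 7. Every day 7 sample lay above every sample of the other days. TXNDC5 rose from day 6 to day 7 by 0.40 ± 0.10 and 0.61 ± 0.10 on the log2 scale (adjusted p = 0.00564 and 7.46e-05) and was higher on day 7 than on day 5 by 0.33 ± 0.10 and 0.36 ± 0.10 (adjusted p = 0.0288 and 0.016). The difference from day 5 was not called under sgControl without day 5 replicate 1 or 2 or day 7 replicate 1 or 3 (edgeR adjusted p = 0.0554 to 0.191), nor under sgRELA without day 5 replicate 1 or 2 or day 7 replicate 2 (0.0608 to 0.0766). Of its exon bases, 60.6% are shared with the readthrough gene BLOC1S5-TXNDC5 in GENCODE v29.

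The lectins calnexin and calreticulin hold glycoproteins while they fold, and both of their genes rose on day 6 and fell on day 7 under both guides. CALR (chr19:12938578-12944489) encodes calreticulin. CALR with sgControl was at 631, 507 and 515 on day 5, 1027, 1137 and 1041 on day 6 and 592, 608 and 627 on day 7. CALR with sgRELA was at 639, 579 and 584 on day 5, 1111, 1209 and 1245 on day 6 and 605, 624 and 641 on day 7. Day 6 lay far above both other days, which overlapped. CALR rose 1.94-fold and 1.98-fold (adjusted p = 2.74e-10 and 1.45e-10) and fell 1.75-fold and 1.91-fold (adjusted p = 1.18e-09 and 1.03e-10), and the log2 fold change of day 7 against day 5 was 0.14 ± 0.07 and 0.05 ± 0.07 (adjusted p = 0.224 and 0.755).

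CANX (chr5:179678628-179730925) encodes calnexin, the membrane-bound counterpart. CANX under sgControl was at 635, 539 and 613 on day 5, 754, 972 and 889 on day 6 and 591, 575 and 557 on day 7. CANX under sgRELA was at 677, 622 and 679.6 on day 5, 858, 913 and 898 on day 6 and 627, 539.5 and 552 on day 7. Day 6 did not overlap the other days. CANX rose by 0.55 ± 0.08 and 0.43 ± 0.08 (adjusted p = 2.15e-05 and 0.000547) and fell by 0.60 ± 0.08 and 0.64 ± 0.08 (adjusted p = 1.32e-06 and 6.23e-07) on the log2 scale. UGGT1, the folding sensor that sends glycoproteins back to the lectins, was called on neither day 6 against day 5 nor day 7 against day 6: it ranged from 259 to 360.1 CPM and was higher on day 7 than on day 5 by 0.27 ± 0.08 and 0.29 ± 0.08 (adjusted p = 0.0202 and 0.0115). For UGGT1 the call ended without sgControl day 5 replicate 2 or 3 or day 7 replicate 1 (edgeR adjusted p = 0.0708 to 0.134), and without sgRELA day 5 replicate 1 or 3 or day 7 replicate 2 (0.0623 to 0.0929).

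Among the sensors and transcription factors, XBP1 and CREB3L2 rose on day 6 under both guides, and XBP1, CREB3L2 and ERN1 fell on day 7 under both. XBP1 (chr22:28794555-28800597) encodes the factor made active by IRE1 splicing, which gene counts do not resolve. XBP1 with sgControl was at 51.5, 33.5 and 37.0 on day 5, 74.7, 90.7 and 84.7 on day 6 and 30.0, 32.6 and 30.5 on day 7. XBP1 with sgRELA was at 48.0, 41.8 and 47.0 on day 5, 75.2, 85.5 and 74.5 on day 6 and 30.0, 30.2 and 28.1 on day 7. The 3 days did not overlap within a guide, and day 6 was highest. XBP1 rose 2.05-fold and 1.72-fold (adjusted p = 4.83e-06 and 0.000252) and fell 2.69-fold and 2.66-fold (adjusted p = 3.61e-09 and 4.98e-09). Against day 5, its day 7 level was lower under sgRELA (-0.63 ± 0.14, adjusted p = 0.00163) and not called under sgControl (-0.39 ± 0.14, adjusted p = 0.0564).

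CREB3L2 (chr7:137874979-138002067) encodes a membrane-bound transcription factor of the ATF6 kind that serves secretory capacity. For CREB3L2, the sgControl values were 67.3, 54.8 and 62.5 on day 5, 139.5, 146 and 131 on day 6 and 59.3, 43.3 and 66.5 on day 7. For CREB3L2, the sgRELA values were 71.7, 83.2 and 66.8 on day 5, 126, 120.5 and 128 on day 6 and 66.4, 58.8 and 57.3 on day 7. All 6 day 6 samples lay above the samples of the other days. CREB3L2 rose 2.26-fold and 1.69-fold (adjusted p = 1.89e-07 and 0.000142) and fell 2.46-fold and 2.05-fold (adjusted p = 4.01e-09 and 3.33e-07).

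ERN1 (chr17:64039142-64130819) encodes IRE1 itself. ERN1 levels under sgControl were 133, 148 and 138 on day 5, 178, 174 and 182 on day 6 and 104, 96.4 and 103 on day 7. ERN1 levels under sgRELA were 128, 114 and 164 on day 5, 173, 162 and 149 on day 6 and 84.4, 92.2 and 95.5 on day 7. Days 5 and 6 overlapped under sgRELA through day 5 replicate 3, and day 7 lay below both days under each guide. The rise on day 6 was called under sgControl (0.35 ± 0.10, adjusted p = 0.0281) and not under sgRELA (0.25 ± 0.10, adjusted p = 0.154), a difference that was not called as an interaction. That call was lost without sgControl day 5 replicate 1 or 3 or day 6 replicate 1 or 3 (edgeR adjusted p = 0.0615 to 0.12). ERN1 fell by 0.82 ± 0.10 and 0.83 ± 0.10 on day 7 (adjusted p = 6.04e-07 and 5.88e-07). Of the genes of the other sensors, ATF6 ranged from 150.6 to 226 CPM with no call. EIF2AK3 ranged from 16.4 to 37.8 CPM, and its fall on day 7 against day 6 was called under sgControl and not under sgRELA (-0.65 ± 0.18, adjusted p = 0.0105, against -0.24 ± 0.18 and adjusted p = 0.497 under sgRELA). Without sgControl day 7 replicate 1 the EIF2AK3 fall was not called (edgeR adjusted p = 0.111).

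Of the 9 tested genes of ER-associated degradation, SEL1L and DERL2 rose on day 6 under both guides, and EDEM1, HERPUD1, SEL1L and SYVN1 fell on day 7 under both. EDEM2, EDEM3, DERL1 and SELENOS were called in no day comparison. HERPUD1 (chr16:56932048-56944863) encodes a membrane organizer of the degradation complex. HERPUD1 under sgControl was at 64.7, 54.7 and 60.3 on day 5, 74.6, 87.6 and 81.5 on day 6 and 19.9, 28.9 and 25.9 on day 7. HERPUD1 under sgRELA was at 77.6, 64.2 and 58.4 on day 5, 69.3, 81.9 and 82.2 on day 6 and 24.3, 22.4 and 27.1 on day 7. Days 5 and 6 overlapped under sgRELA, and the 6 day 7 samples were low, between 19.9 and 28.9. HERPUD1 fell 3.26-fold and 3.16-fold from day 6 to day 7 (adjusted p = 1.66e-10 and 3.27e-10). It was 2.40-fold and 2.71-fold lower on day 7 than on day 5 (adjusted p = 1.13e-07 and 1.22e-08). From day 5 to day 6 it rose under sgControl (0.44 ± 0.14, adjusted p = 0.0376), a call that ended without day 5 replicate 2 or 3 or day 6 replicate 2 or 3 of sgControl (edgeR adjusted p = 0.0841 to 0.154). Under sgRELA the value was 0.22 ± 0.14 (adjusted p = 0.411).

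SEL1L (chr14:81471549-81533861) encodes the scaffold of the HRD1 ubiquitin ligase. SEL1L with sgControl was at 266, 197 and 243 on day 5, 367, 448 and 399.8 on day 6 and 173, 156 and 175 on day 7. SEL1L with sgRELA was at 259, 223 and 241 on day 5, 324, 367 and 346 on day 6 and 172, 163 and 149.9 on day 7. The 3 days did not overlap within a guide, with day 6 highest and day 7 lowest. SEL1L rose 1.72-fold and 1.44-fold (adjusted p = 2.53e-06 and 0.000604) and fell 2.41-fold and 2.14-fold (adjusted p = 5.01e-11 and 9.6e-10). SYVN1, which encodes the ligase HRD1, ranged from 37.5 to 86.5 CPM and fell by 0.76 ± 0.15 and 0.47 ± 0.15 on day 7 (adjusted p = 0.000462 and 0.039). On day 6 SYVN1 rose under sgControl (0.58 ± 0.15, adjusted p = 0.0117) and was not called under sgRELA (0.32 ± 0.15, adjusted p = 0.233). Its highest sample, day 6 replicate 1 of sgControl, had 147 CPM in library 1 and 47.2 in library 2. The rise was 0.37 without that RNA sample (edgeR adjusted p = 0.144) and was also not called without sgControl day 5 replicate 3 (0.0688). The sgRELA fall of SYVN1 was not called without day 6 replicate 1 or 3 or day 7 replicate 1 or 3 of sgRELA (edgeR adjusted p = 0.103 to 0.185). DERL2, a derlin of the same complex, rose by 0.55 ± 0.17 and 0.68 ± 0.17 on day 6 (adjusted p = 0.0335 and 0.00837). Its call ended without sgControl day 5 replicate 1 or 2 or day 6 replicate 2 (edgeR adjusted p = 0.0972 to 0.19), and without sgRELA day 5 replicate 3 or day 6 replicate 1 (0.065 to 0.091).

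EDEM1 (chr3:5187646-5219957) encodes a mannosidase-like protein that marks misfolded glycoproteins for degradation. For EDEM1, the sgControl values were 1470.0, 1505 and 1627 on day 5, 1222, 1483 and 1436 on day 6 and 841, 769 and 734 on day 7. For EDEM1, the sgRELA values were 1549, 1535 and 1577 on day 5, 1414, 1350.0 and 1404 on day 6 and 788, 772 and 795 on day 7. The group means of EDEM1 were highest on day 5 rather than day 6, and all day 7 samples lay below all others. The difference of day 6 from day 5 was not called (-0.15 ± 0.06 and -0.16 ± 0.06, adjusted p = 0.156 and 0.147). EDEM1 fell 1.77-fold and 1.77-fold from day 6 to day 7 (adjusted p = 7.22e-11 and 9.21e-11). It was 1.96-fold and 1.98-fold lower on day 7 than on day 5 (adjusted p = 8.5e-12 and 5.13e-12). Its relatives EDEM2 and EDEM3 ranged from 15.8 to 33.9 CPM and from 112 to 182 CPM. DERL1, a derlin, ranged from 46.7 to 81.1 CPM, and SELENOS, a selenoprotein of the same machinery, from 15.3 to 23.8 CPM.

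The genes of both secreted stress proteins rose on day 6 and fell on day 7 under both guides. CRELD2 (chr22:49918167-49927540) encodes a small ER-resident protein released under stress. CRELD2 levels under sgControl were 18.1, 22.9 and 18.1 on day 5, 51.5, 69.6 and 42.0 on day 6 and 22, 18.3 and 18.6 on day 7. CRELD2 levels under sgRELA were 29.3, 18.5 and 22.8 on day 5, 51.5, 61.4 and 45.5 on day 6 and 26.1, 20.1 and 20.7 on day 7. Day 6 was high in all 6 samples, and days 5 and 7 overlapped. CRELD2 rose 2.76-fold and 2.25-fold (adjusted p = 3.08e-06 and 7.69e-05) and fell 2.77-fold and 2.37-fold (adjusted p = 5.65e-07 and 9.67e-06).

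MANF (chr3:51385047-51389397) encodes a BiP-binding factor. MANF under sgControl was at 39.2, 18.8 and 26.6 on day 5, 47.5, 67.5 and 58.5 on day 6 and 21.5, 15.6 and 20.2 on day 7. MANF under sgRELA was at 38.0, 26.5 and 25.6 on day 5, 64.5, 63.3 and 63.9 on day 6 and 16.8, 17.6 and 19.1 on day 7. Day 6 lay above both other days, and days 5 and 7 overlapped under sgControl only. MANF rose 2.05-fold and 2.13-fold (adjusted p = 0.000556 and 0.000349) and fell 3.03-fold and 3.59-fold (adjusted p = 3.79e-07 and 3.92e-08). SEC24D, a coat protein of COPII vesicles, and WFS1, an ER membrane protein, fell on day 7 under sgControl (-0.44 ± 0.13, adjusted p = 0.0209, and -0.82 ± 0.27, adjusted p = 0.04). Under sgRELA their values were -0.32 ± 0.13 (adjusted p = 0.119) and -0.45 ± 0.27 (adjusted p = 0.361), which were not called. Both calls were lost without sgControl day 6 replicate 2 or day 7 replicate 2 or 3, and that of WFS1 also without day 6 replicate 1 of either guide (edgeR adjusted p = 0.0786 to 0.13 for SEC24D and 0.0512 to 0.326 for WFS1). SEC61B, a subunit of the translocation channel, had a log2 fold change of 0.56 ± 0.18 on day 6 under sgControl that was not called (adjusted p = 0.0513).

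Per kilobase of merged GENCODE exons and averaged over the 18 RNA samples, CALR had the highest mean level of the members, 285 ± 97.7 CPM per kilobase (SD over samples of all groups). EDEM1 followed at 183 ± 50.7, CANX at 111 ± 23.6, HSPA5 at 91.2 ± 47.6 and HSP90B1 at 54.8 ± 27.7 CPM per kilobase. These spreads include the day differences, and those of each neighbouring pair in this order overlap. On day 5 the order of the leading pair was the other way, with EDEM1 at 227 ± 12.1 and CALR at 203 ± 25.5 CPM per kilobase under sgControl and 229.8 ± 3.17 and 221.4 ± 12.4 under sgRELA (mean ± SD, n = 3), spreads that overlap as well. The lowest tested member was WFS1, at 2.13 ± 0.643 CPM per kilobase.

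The 11 members with ERSE or ERSE-II, whose stretches are printed above or named there, had a median log2 fold change of 0.96 under sgControl and 0.78 under sgRELA on day 6 against day 5. On day 7 against day 6 it was -1.35 and -1.36. Of these 11, 10 rose under sgControl and 9 under sgRELA on day 6, and all 11 fell on day 7 under both. Of all genes tested, 3.29% and 2.57% rose on day 6, and 6.31% and 5.02% fell on day 7 against day 6. ERO1B had no called rise under either guide and HERPUD1 none under sgRELA. The HERPUD1 and PDIA6 rises under sgControl and the HSPA5 and PDIA6 rises under sgRELA were among those lost without 1 RNA sample, as given above. The 25 members in the promoter table without either element had medians of 0.24 and 0.22 on day 6 and -0.50 and -0.47 on day 7. Of these 25, 9 and 8 rose on day 6, and 13 and 11 fell on day 7. Outside the members, of 22 other tested genes with ERSE or ERSE-II, 2 rose and 2 fell under sgControl on day 6 and 1 rose and 2 fell under sgRELA. On day 7 against day 6, 6 of the 22 fell and 2 rose under sgControl, and 4 fell and 3 rose under sgRELA. Among the 22, CLEC4F, CNKSR1, GLRA2, NAV2 and PLS3 had standard errors of 0.84 to 2.76 in the day comparisons. Only very large differences could be called in these genes. The shares of all genes tested that fell on day 6 were 5.58% and 4.34%. Those that rose on day 7 against day 6 were 8.25% and 7.21%. No test was made of the difference between members with and without the element.

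The guide made no called difference to any member. RELA itself, read as a check of the labels, was at 20.2 to 39.3 CPM in the 9 sgControl samples and 119.8 to 318.5 CPM in the 9 sgRELA samples. Under sgRELA it was at 318.5, 263 and 299.7 on day 5, 223, 187 and 194 on day 6, and 126, 136 and 119.8 on day 7. With edgeR, 0 of 39 members were called between guides on day 5 (0.138% of all genes in either direction), on day 6 (0.214%), on day 7 (0.0907%) or averaged over the days (0.388%). At an unadjusted p under 0.05 the counts were 2, 5, 1 and 3 of the 39 members, beside 5.96%, 6.07%, 4.68% and 7.15% of all genes tested, and DESeq2 also called 0 in each. For HSPA5 the difference averaged over days was -0.02 ± 0.08 on the log2 scale with a 95% interval of -0.18 to 0.14, for XBP1 it was 0.00 ± 0.08 (-0.16 to 0.16) and for EDEM1 0.01 ± 0.04 (-0.07 to 0.09). Over the 39 members these intervals reached no lower than -0.39, for EDEM2, and no higher than 0.56, for WFS1. These are the widest limits and do not apply to every member, and a missing call does not show equal levels.

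DNAJC10, TXNDC5 and CALR had the smallest unadjusted p averaged over days. DNAJC10 was at 133, 142 and 135 CPM on day 5, 126, 155 and 152 on day 6 and 153, 131 and 148 on day 7 under sgControl. Under sgRELA, DNAJC10 was at 159, 150.2 and 146 on day 5, 165, 182 and 158 on day 6 and 157, 142 and 157 on day 7. The guides overlapped on day 7. Its difference was 0.15 ± 0.05 (unadjusted p = 0.00858 by edgeR, adjusted p = 0.429). TXNDC5 differed by -0.15 ± 0.06 (unadjusted p = 0.0155 by edgeR, adjusted p = 0.521) and CALR by 0.10 ± 0.04 (unadjusted p = 0.0208 by edgeR, adjusted p = 0.575).

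The interaction of guide and day was tested jointly on the changes from day 5 to day 6 and from day 5 to day 7. It was called for 0 of 39 members by edgeR and by DESeq2, where edgeR called 0.00363% of all genes. In edgeR's joint test 0 members had an unadjusted p under 0.05. The difference between the guides in the change from day 5 to day 7 was below 0 for 31 of the 39 members, with a median of -0.13 on the log2 scale, beside 0.00 over all genes tested. HSPA5 had a difference of -0.43 ± 0.20 and DNAJB9 of -0.56 ± 0.33. Neither gene was called in the joint test, and no separate call was made for these differences from day 5 to day 7. On day 5 alone, sgRELA against sgControl was above 0 for 32 of the 39 members, with a median of 0.09. On day 7 alone it was below 0 for 24, with a median of -0.02. Of the day 5 samples, sgControl replicate 2 had the lowest summed level of the members, 5631 CPM. Members are not replicates, and neither these tallies nor the part of that sample was tested.

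**Figure D4:**
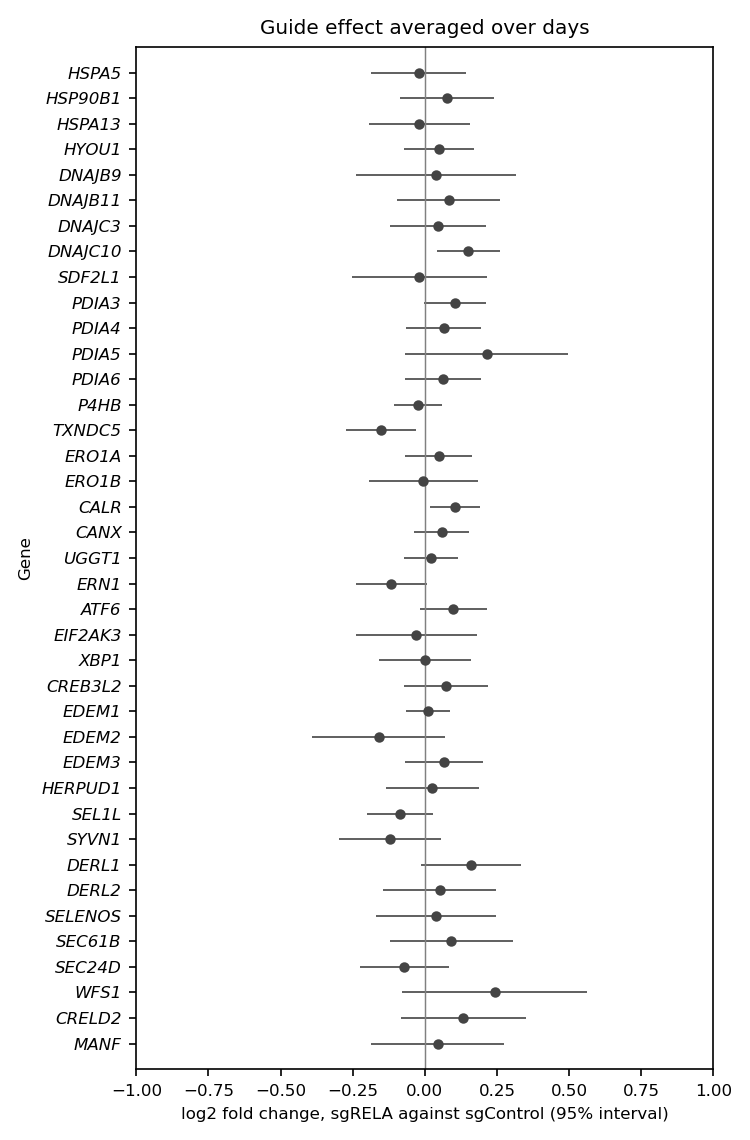
Log2 fold change of sgRELA against sgControl averaged over the 3 days (horizontal axis) for the 39 tested members, with 95% intervals. All points lie between -0.16 and 0.24, and 0 are called.

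Other genes of the pathway were taken from lists chosen by function. Of all genes tested, 3.29% rose and 5.58% fell on day 6 under sgControl, and 2.57% and 4.34% under sgRELA. On day 7 against day 6, 8.25% rose and 6.31% fell under sgControl, and 7.21% and 5.02% under sgRELA. On day 7 against day 5 these shares were 6.65% and 6.36%, and 6.35% and 6.06%. No list below was tested against these shares. Of 31 tested ER folding enzymes outside the members, 3 rose and 2 fell under sgControl on day 6 and 4 rose and 1 fell under sgRELA, and 7 fell under each guide on day 7 against day 6. SERPINH1, a collagen chaperone, fell on both steps, from 79.3 ± 26.5 CPM on day 5 to 24.6 ± 3.22 on day 6 and 11.8 ± 2.41 on day 7 under sgControl (mean ± SD, n = 3), and from 76.7 ± 11.4 to 18.2 ± 4.90 and 10.4 ± 1.5 under sgRELA. ERP29, a PDI-like protein without redox activity, fell on day 7 from day 6 (log2 fold change -0.58 ± 0.13 and -0.47 ± 0.13). CRELD1, the membrane relative of CRELD2, rose by 0.69 ± 0.18 and 0.59 ± 0.18 on day 6 and fell on day 7 (log2 fold change -1.55 ± 0.18 and -1.36 ± 0.18). Calls lost without 1 RNA sample were the day 7 fall of SERPINH1 under sgRELA (day 6 replicate 1 or day 7 replicate 2, edgeR adjusted p = 0.0662 to 0.126) and that of ERP29 under sgRELA (day 6 replicate 1 or 2 or day 7 replicate 3, 0.0545 to 0.0887). So were the CRELD1 rise under sgControl (day 5 replicate 3, edgeR adjusted p = 0.0732) and under sgRELA (day 5 replicate 2 or 3 or day 6 replicate 2 or 3, 0.111 to 0.155).

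Genes of other ER functions were called in both directions, in small counts to be read beside the shares of all genes given above. Of 18 genes of translocation and signal peptide cleavage, 1 rose on day 6 under each guide, and 3 fell on day 7 against day 6 under each, among them SSR2 of the translocon-associated complex (-0.80 ± 0.10 and -0.77 ± 0.10). Of 17 genes of N-glycosylation, 2 rose under sgControl and 1 under sgRELA on day 6, and 2 and 1 fell on day 7. DDOST, of the oligosaccharyltransferase, was among those that fell (-0.45 ± 0.10 and -0.41 ± 0.10). Of 20 further genes of ER-associated degradation, 3 rose and 3 fell on day 7 against day 6 under sgControl, and 4 rose and 3 fell under sgRELA. The ubiquitin-conjugating enzyme gene UBE2G2 rose (0.92 ± 0.09 and 0.88 ± 0.09), as did VCP, the extracting ATPase (0.43 ± 0.07 and 0.33 ± 0.07). Under sgRELA the DDOST fall was not called without day 6 replicate 3 (edgeR adjusted p = 0.053).

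Transport genes were called in both directions, and these counts too were not tested against the shares of all genes. Of 18 genes of COPII transport and retrieval, 3 rose on day 6 under each guide, 3 fell under sgControl and 1 under sgRELA. On day 7 against day 5, SURF4, a cargo receptor, rose by 0.38 ± 0.09 and 0.39 ± 0.09 and SAR1A, the coat GTPase, by 0.48 ± 0.09 and 0.31 ± 0.09, while SEC24B, a coat subunit, fell by 0.59 ± 0.08 and 0.37 ± 0.08. The SAR1A rise under sgRELA was not called without day 5 replicate 1 or 2 or day 7 replicate 3 (edgeR adjusted p = 0.0541 to 0.0965). Of 13 other regulators of ER stress, 3 fell on day 6 under sgControl and 1 rose under sgRELA. Named by their smallest p on day 7 against day 5 under sgControl, DDRGK1 was lower (log2 fold change -0.97 ± 0.18, adjusted p = 0.000261), as was BFAR (-0.37 ± 0.13, adjusted p = 0.0488). Under sgRELA neither was called, with -0.47 ± 0.18 (adjusted p = 0.0892) for DDRGK1 and -0.33 ± 0.13 (adjusted p = 0.0887) for BFAR. Under sgControl BFAR lost its call without any of 13 RNA samples, left out 1 at a time (edgeR adjusted p = 0.0507 to 0.238).

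The list of genes for the PERK and ATF4 branch was mostly lower on day 7, with few calls on day 6. Of its 12 tested genes, 1 rose and 1 fell on day 6 under sgControl, and 1 rose and 3 fell under sgRELA. On day 7 against day 6, 11 fell under sgControl and 10 under sgRELA, and on day 7 against day 5, all 12 were lower under sgControl and 11 under sgRELA. The median log2 fold change on day 7 against day 5 was -1.58 and -1.92. ATF4, the transcription factor of the branch, was lower on day 7 than on day 5 (log2 fold change -1.19 ± 0.08 and -1.10 ± 0.08, adjusted p = 8.5e-12 and 3.46e-11). STC2, a secreted glycoprotein gene, was 6.64-fold and 9.91-fold lower (adjusted p = 8.5e-12 and 4.15e-13), and VLDLR, a lipoprotein receptor gene, 2.91-fold and 4.25-fold lower (adjusted p = 1.49e-09 and 4.91e-12). The activity of PERK was not measured, and the difference between this list and the members was not tested.

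Most heat shock genes of the cytosol and mitochondria fell on day 6 and rose on day 7. Of 15 such genes, 13 fell on day 6 under each guide and 11 rose on day 7 against day 6 under each, with none in the other direction. Their median log2 fold change was -1.20 and -1.52 on day 6 and 1.19 and 1.11 on day 7. DNAJB1, an Hsp40 gene, fell 7.58-fold and 7.66-fold on day 6 (adjusted p = 2.03e-16 and 1.84e-16) and then rose 1.5-fold and 1.71-fold. HSPA8, the constitutive Hsp70 gene, fell on day 6 (log2 fold change -0.42 ± 0.06 and -0.29 ± 0.06) and rose by 1.32 ± 0.06 and 1.19 ± 0.06 on day 7. HSPA1B, an inducible Hsp70 gene with a near-identical copy in HSPA1A, so that its own count is uncertain, fell 13.6-fold and 12.4-fold on day 6. Its log2 fold change from day 6 to day 7 was 0.33 ± 0.25 and 0.62 ± 0.25, which was not called. The 3 named genes differed on day 7 against day 5. DNAJB1 was still 5.06-fold and 4.47-fold lower and HSPA1B 10.8-fold and 8.09-fold lower, while HSPA8 was 1.86-fold and 1.88-fold higher. No test compared the heat shock genes with the members.

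**Figure D5:**
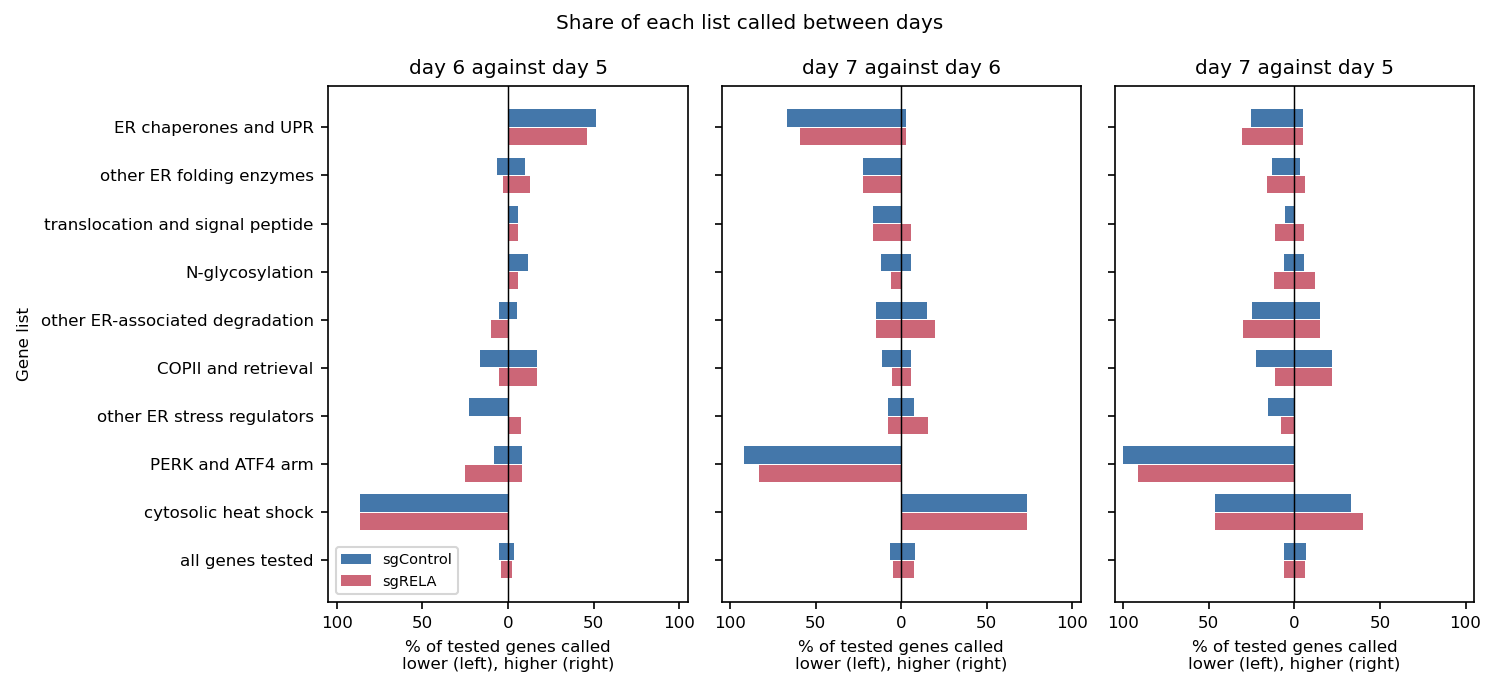
Percent of the tested genes of each list called lower (left of 0) and higher (right of 0) between days under each guide, beside all genes tested. On day 6 against day 5, 20 of 39 and 18 of 39 members are higher, and 13 of 15 heat shock genes are lower under each guide.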

How the data were processed

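The authors deposited raw gene counts of 36 libraries as 1 table, not normalized as far as the labels say. The submitters' processing notes name cutadapt 1.18, STAR 2.7.9a and GRCh38. The counting tool, annotation and strand setting are not given in the sources used here, so counts of overlapping or antisense genes are uncertain. The 2 libraries of each RNA sample were added, giving 18 sums in 6 groups of guide and day. Tests used edgeR 4.0.16 in R 4.3.3: TMM scaling, filterByExpr with a minimum count of 10, 1 mean per group, the quasi-likelihood F test with p-values adjusted by Benjamini-Hochberg over 27553 genes, and calls where the adjusted p was under 0.05. The F statistic gave the standard errors. The scripts were tested on simulated data.

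The members, the other lists and the tests were chosen with earlier results of these data known. A member is given in every RNA sample where it was called under both guides in the same direction in at least 1 day comparison, up to 22 members by adjusted p; UGGT1, DNAJB11, DERL2 and SYVN1 fell beyond that limit. Of other lists, up to 3 genes called under both guides on day 7 against day 5 are named, or else the 2 with the smallest p under sgControl; 1 gene chosen this way is not reported here. Of the listed genes, 1 had no row and is not analysed here. Promoter sequences came from RefSeq (GRCh38.p14). Alternatives were DESeq2 1.42.0, RLE factors, no count filter, either library alone, replicate blocks and leaving out RNA samples.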

Additional observations from a re-analysis of the deposited data

Results flagged for a closer look

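The summed level of the 40 members was searched for single libraries that stood apart within each of the 6 groups of 6 libraries, with Dixon's test at its 95% critical value. In sgControl on day 6, library 1 of replicate 1 had 6774 CPM, while the highest library of that group had 9209 CPM, and its gap took 0.705 of the range. In sgControl on day 7, library 1 of replicate 1 had 5229 CPM, above a lowest value of 4868 CPM, with a gap of 0.74 of the range. Chance marks about 1 in 20 groups, and the 6 libraries of a group are 2 from each of 3 RNA samples. The other 5 libraries of sgControl on day 6 lay between 8490 and 9209 CPM, and library 1 of replicate 1 lay below the highest sgControl library of day 5, at 6832 CPM. It was also low in detected genes, with 26526, while library 1 of sgControl day 5 replicate 2 had 25398, and these were the lowest counts of detected genes. Its part in the value was not tested.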

How the results depend on the processing

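Each count of called members was recomputed under the other settings. With library 1 of each RNA sample alone, 11 members were called on day 6 against day 5 under sgControl in place of 20 and 6 under sgRELA in place of 18, and on day 7 against day 5 it was 5 in place of 12 and 7 in place of 14. Without single RNA samples, the counts under sgControl ran from 16 to 20 on day 6 against day 5, 24 to 28 on day 7 against day 6 and 7 to 13 on day 7 against day 5. Under sgRELA they ran from 16 to 19, 23 to 25 and 11 to 15. Between guides and for the interaction, 0 members were called under every setting run. Log2 fold changes of members and of genes chosen from other lists were followed in the day comparisons where the gene was called. The guide differences of DNAJC10, TXNDC5 and CALR averaged over days were added. Of these 203 values, recomputed 5275 times in all, 0 changed direction and 275 recomputed values were no longer called. Of the 275, 81 were with library 1 alone, 36 with library 2 alone and 129 without 1 RNA sample. Nearly all were picked because they were called, and every setting reuses most of the same RNA samples. A change of direction was therefore unlikely in advance. A single library was made from 100 pg of RNA and had as few as 7586205 counts, fewer than any sum of 2. The median of the members on day 6 against day 5 ran from 0.37 to 0.51 under sgControl and from 0.30 to 0.41 under sgRELA. On day 7 against day 6 it ran from -0.81 to -0.69 and from -0.83 to -0.77.

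Samples of the same replicate number did not deviate together: 0 of 27 same-number pairs had a correlation of deviations over 0.1 (range -0.11 to 0.06). This cannot show whether they were paired in the experiment, and the main tests did not treat them as pairs. With the replicate block the 3 counts of called members were 20, 27 and 13 under sgControl and 19, 24 and 14 under sgRELA. With the replicate block within each guide they were 18, 27 and 12, and 18, 25 and 14.

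Counts over all genes moved further. Day comparisons under sgControl had 2445 genes called on day 6 against day 5, 4012 on day 7 against day 6 and 3585 on day 7 against day 5, and those under sgRELA had 1904, 3368 and 3420. With library 1 alone these were 430, 1879, 820, 196, 961 and 669. With library 2 alone, 4 of them moved by over 1.5 times, the first 2 to 1374 and 2628 and those of sgRELA against day 5 to 1183 and 2222. Without the 2 RNA samples whose libraries had the fewest detected genes, the first was 1589. The count of sgRELA on day 6 against day 5 was 1243 without sgRELA day 5 replicate 3 and 1242 without sgRELA day 6 replicate 2. Between guides, 38, 59 and 25 genes were called on days 5, 6 and 7 and 107 averaged over days. DESeq2 called 72, 128, 55 and 222. Without a count filter it was 68 on day 5, 55 on day 7 and 211 averaged. Library 1 alone gave 15, 15, 13 and 47, and library 2 alone 22 on day 5, 35 on day 6 and 63 averaged. It was 38 on day 6 without sgRELA day 6 replicate 2 and 16 on day 7 without sgRELA day 7 replicate 1. The interaction was called for 1 gene, for 14 with DESeq2, for 24 without a filter, for 0 with either library alone, for 4 without the 2 RNA samples and for 0 to 3 without single RNA samples. The cause was not tested.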
